A study of Canis lupus familiaris with 25 samples.

Results

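Among 13 canine mammary carcinomas, 6 kept a measurable level of LALBA, the mRNA for the milk protein alpha-lactalbumin, and 7 did not. The classes were chosen by the readout itself: a tumour was LALBA-high where LALBA, read from its brightest probe set on average across the 25 arrays, exceeded log2 4, and LALBA-low where it did not. The LALBA-high tumours came from dogs 1, 2, 3, 6, 7 and 14, and the LALBA-low tumours from dogs 4, 5, 9, 10, 11, 12 and 13. All 13 were simple mammary carcinomas that had spread to lymph nodes, surgical specimens from dogs of different breeds, with no treatment given in the labels. All were scored negative for the oestrogen receptor. The LALBA-high dogs were 9 to 12 years old and the LALBA-low dogs 11 to 16 years. Non-neoplastic mammary gland of 11 of these dogs was also profiled, from 5 LALBA-high dogs (2, 3, 6, 7 and 14) and 6 LALBA-low dogs (4, 5, 10, 11, 12 and 13), and a further gland came from dog 8, whose tumour is not analysed here. Dog 8 was 15 years old. The specimens were macrodissected to enrich epithelium, so each array holds a mixture of cells, and fewer cells of a type cannot be told apart from less RNA per cell.

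Alpha-lactalbumin is made by the secretory cells of the mammary gland, where it joins the galactosyltransferase B4GALT1 to form lactose synthase. Its gene is switched on late in the differentiation of these cells, when prolactin acts through its receptor PRLR, the kinase JAK2 and the transcription factor STAT5A, together with the epithelial factor ELF5. Beta-casein (CSN2), the main milk protein of that programme, and butyrophilin (BTN1A1), which coats the secreted milk fat globule, are its usual companions.

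Expression was measured on Affymetrix canine arrays, and the deposited values are on a log2 scale, so that a difference of 1 is a doubling of signal. The array medians lay between 3.55 and 3.76, and between 47.5 and 48.8% of the probe sets exceeded log2 4 on each array. The number of arrays limits the precision: over all genes the median standard error of a class difference was 0.34 in tumours and 0.25 in glands. The 3′ minus 5′ difference of the actin control probe sets, a sign of RNA quality, ran from 0.79 to 1.91 (median 1.28) in the LALBA-high tumours and from 0.33 to 1.37 (median 1.00) in the LALBA-low ones. In the glands it ran from 0.53 to 2.70 (median 1.84) and from 0.95 to 1.91 (median 1.30), and its part in the results was not tested beyond the covariate fits given here.

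LALBA in the LALBA-high tumours stood at 5.64 in dog 1, 5.03 in dog 2, 12.74 in dog 3, 12.14 in dog 6, 6.86 in dog 7 and 11.86 in dog 14. In the LALBA-low tumours it stood at 2.52 in dog 4, 2.44 in dog 5, 2.42 in dog 9, 2.39 in dog 10, 2.57 in dog 11, 2.44 in dog 12 and 2.43 in dog 13. The tumours nearest to the threshold were those of dog 2 on the upper side and dog 11 on the lower. The LALBA-high class was itself broad, with dogs 3, 6 and 14 near log2 12 and dogs 1, 2 and 7 well below them, whereas the LALBA-low tumours lay within a narrow band at the bottom of the scale. A threshold of log2 3 or 5 gave the same classes, and one of log2 6 moved dogs 1 and 2 to the low side.

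The glands of both sets of dogs contained LALBA. It measured 9.88, 15.37, 15.06, 13.78 and 15.50 in the glands of the LALBA-high dogs 2, 3, 6, 7 and 14 (mean 13.92 ± 2.36, SD, n = 5). It measured 11.07, 7.97, 14.28, 14.03, 12.76 and 12.29 in those of the LALBA-low dogs 4, 5, 10, 11, 12 and 13 (mean 12.07 ± 2.33, SD, n = 6). The 2 sets overlapped, and the difference of 1.85 did not pass a two-sided exact permutation test (p = 0.238). With the threshold at log2 6, which moved the gland of dog 2 to the low side, the difference was 3.17 (exact permutation p = 0.0182), and without the gland of dog 2 it was 2.86 (exact permutation p = 0.0286). In the other 14 of 16 alternatives it did not pass, and without dog 5 it was 1.03 (exact permutation p = 0.437). Some of these 14 left the glands in the same classes and so repeat the main result, such as thresholds of log2 3 and 5.

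Between the tumour classes the other milk genes are given as values without a test, because they describe the same secretory programme as the gene that set the classes. CSN2 in the LALBA-high tumours was 7.51, 8.08, 13.43, 8.79, 7.13 and 11.56 in dogs 1, 2, 3, 6, 7 and 14, and in the LALBA-low tumours 6.53, 6.86, 3.28, 6.50, 3.16, 3.19 and 7.46 in dogs 4, 5, 9, 10, 11, 12 and 13. The LALBA-low tumours of dogs 4, 5, 10 and 13 thus had CSN2 above log2 6 with LALBA below the threshold, and that of dog 13 overlapped the LALBA-high class. BTN1A1 was 4.62, 3.91, 8.94, 9.70, 6.70 and 7.22 in the LALBA-high tumours and 4.30, 3.16, 2.27, 2.56, 3.20, 3.92 and 3.18 in the LALBA-low ones, in the same orders of dogs. The classes overlapped, since the LALBA-low tumours of dogs 4 and 12 exceeded the LALBA-high tumour of dog 2. It was highest in dogs 3 and 6, which also had the most LALBA, and across the 13 tumours its Pearson correlation with LALBA was 0.95 (0.91 within the 6 LALBA-high tumours). For CSN2 it was 0.82 (0.80 within the 6). These correlations describe arrays that share a platform and a normalization.

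Not every milk gene went with LALBA. Lactoferrin (LTF), an iron-binding milk protein also made outside lactation, was 13.75, 11.04, 13.68, 9.89, 13.60 and 12.29 in the LALBA-high tumours and 13.13, 14.09, 14.02, 15.96, 13.70, 14.37 and 15.49 in the LALBA-low ones, a mean difference of -2.02 with overlapping classes. The median of MUC1, the mucin of the apical membrane, was 4.93 in the LALBA-high and 7.35 in the LALBA-low tumours. The median of PIGR, which carries IgA into milk, was 8.83 and 10.58. Medians of the fat globule protein MFGE8 (10.53 and 10.64), the lipid droplet protein PLIN2 (10.47 and 10.27), the lipase LPL (9.18 and 8.93) and xanthine dehydrogenase (XDH, 6.35 and 6.60) were close in the LALBA-high and LALBA-low tumours. For PIGR and XDH the probe sets of the gene differed in the sign of the class difference. LPO and CIDEA did not reach log2 4 in enough tumours to be tested.

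**Figure D1:**
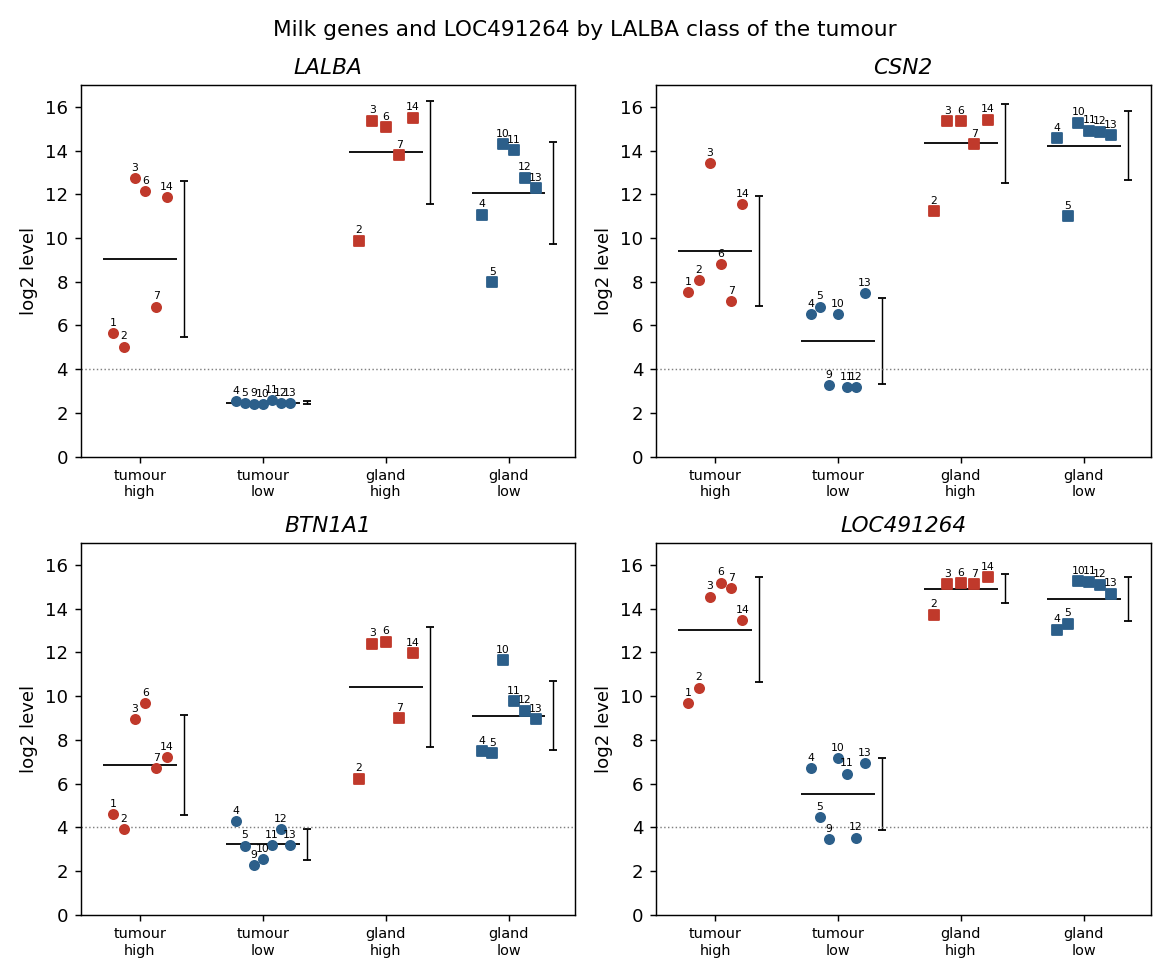
LALBA, CSN2, BTN1A1 and LOC491264 (log2 signal, vertical axis) in each tumour (circles) and gland (squares) of the LALBA-high dogs (red) and LALBA-low dogs (blue), with dog numbers above the points, the class mean as a bar and its SD beside it; the dotted line is the log2 4 threshold. LALBA-high and LALBA-low tumours are apart in the LALBA and LOC491264 panels, and the glands of both sets overlap in all 4.

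Over the whole array, the gene with the smallest p between the 2 tumour classes was LOC491264, a locus named only by number. It measured 9.68, 10.39, 14.55, 15.19, 14.93 and 13.48 in the tumours of dogs 1, 2, 3, 6, 7 and 14, and 6.71, 4.48, 3.45, 7.16, 6.45, 3.53 and 6.92 in those of dogs 4, 5, 9, 10, 11, 12 and 13. The classes did not overlap, and both tested probe sets of the locus had the same direction. In the glands it was 13.73, 15.13, 15.17, 15.12 and 15.44 in the LALBA-high dogs. In those of the LALBA-low dogs it was 13.05, 13.32, 15.25, 15.25, 15.10 and 14.69. The LALBA-high tumours of dogs 3, 6, 7 and 14 lay within the range of these glands. Those of dogs 1 and 2 and all LALBA-low tumours lay below that range. The gland of the dog without an analysed tumour is not part of this range. Its level, given under the other observations, was far lower. The tumours of dogs 1, 2, 4, 10, 11 and 13 exceeded that gland, and those of dogs 5, 9 and 12 did not. In the RefSeq table the locus lies next to LOC607807 and OBP2B, a gene of the lipocalin family. GLT6D1, LCN9 and CANF2 lie close by on the same chromosome. The locus was not on the milk list, and whether it is itself a milk gene was not tested.

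The difference in LOC491264 between the tumour classes was 7.51 (SE 1.01), with an adjusted p of 0.0751 in the limma fit, which missed the threshold of 0.05. Over 30 alternative settings its adjusted p ranged from 0.0092 to 0.556, and it passed in 7 of them, among them the fits without the tumour of dog 1 (0.0092) or dog 2 (0.0242). In that fit over 8816 genes none was called (0%), with p-values adjusted by the Benjamini-Hochberg method over all 21433 tested probe sets. At an unadjusted p below 0.05, which is used here only to describe gene lists, 468 genes (5.31%) were higher in the LALBA-high tumours and 518 genes (5.88%) were lower, and the median difference over all genes was 0.04. The classes were selected on LALBA from the same arrays, so a low p says only that a gene's level goes with the LALBA class. None of the list genes below passed the adjusted test in tumours, and the counts below are all at the unadjusted p.

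Among the genes of prolactin and STAT5 signalling, 1 of 10 was higher in the LALBA-high tumours and 2 were lower, with a median difference of 0.31. STAT5A, the factor that carries the prolactin signal to milk genes, was 9.12, 9.34, 9.51, 10.74, 9.41 and 9.35 in the LALBA-high tumours (mean 9.58 ± 0.58, SD, n = 6). In the LALBA-low tumours it was 8.75, 8.49, 8.48, 7.90, 8.49, 8.42 and 10.01 (mean 8.65 ± 0.65, SD, n = 7). The tumour of dog 13 alone stood above 9 in the low class, and the difference was 0.93 (SE 0.34, unadjusted p = 0.0153 in limma). The 2 lower genes were the kinase AKT1, with a difference of -1.39, and TNFSF11 (RANKL), the signal that progesterone-responsive cells send to their neighbours, with -2.11.

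The receptor PRLR was below log2 4 in 12 tumours and reached 6.34 in that of dog 13, a LALBA-low tumour, so STAT5A and LALBA were present in tumours whose PRLR signal was near the bottom of the scale. In the glands PRLR ran from 4.76 to 7.18 in the LALBA-high dogs and from 5.49 to 6.99 in the LALBA-low dogs. ELF5, the alveolar cell factor, was 4.78, 6.03, 9.77, 13.96, 12.04 and 7.94 in the LALBA-high tumours and 2.67, 4.82, 2.46, 8.17, 8.76, 10.22 and 3.35 in the LALBA-low ones. Its difference of 3.31 (SE 1.67, unadjusted p = 0.0679 in limma) came with wide spread and overlap, since the LALBA-low tumours of dogs 10, 11 and 12 had more ELF5 than the LALBA-high tumours of dogs 1, 2 and 14.

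Few hormone receptor genes went with the LALBA class. Of 14 genes on the hormone and luminal factor list, 1 was lower in the LALBA-high tumours and 0 were higher, with a median difference of -0.40. The lower one was AGR2, an oestrogen-responsive secretory chaperone, with a difference of -2.48. ESR1, the oestrogen receptor, stayed at or below 3.74 in every tumour, and was not tested. FOXA1, which opens chromatin for that receptor, reached 6.52 in the tumour of dog 13 and was at or below 2.10 in the others. PGR, the progesterone receptor, was 7.22, 8.41, 3.45, 2.46, 7.17 and 7.61 in the LALBA-high tumours and 6.71, 8.65, 4.90, 6.12, 7.84, 4.68 and 8.10 in the LALBA-low ones, a difference of -0.66. The tumours of dogs 3 and 6, with the most LALBA, had the least PGR, but the classes overlapped over almost their whole range. GATA3, the luminal transcription factor, was 6.78, 9.29, 6.43, 9.28, 3.61 and 9.45 against 2.96, 10.03, 7.87, 6.81, 8.62, 5.71 and 10.25, a difference of 0.01. Both classes held tumours with high and with very low GATA3.

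ERBB2, the receptor tyrosine kinase HER-2, was 6.70, 4.82, 5.37, 4.61, 5.87 and 5.71 in the LALBA-high and 8.30, 5.78, 4.75, 7.19, 6.64, 7.99 and 6.72 in the LALBA-low tumours. The difference was -1.25 (SE 0.54), and ERBB2 was the only 1 of 15 genes of ERBB and IGF signalling below the unadjusted threshold, where the list median was -0.29. The labels scored HER-2 positive in 5 of 6 LALBA-high and 6 of 7 LALBA-low tumours.

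Genes of luminal epithelium were lower, not higher, in the LALBA-high tumours. Of 13 tested, 5 were lower and 0 were higher, 12 differences were negative, and the list median was -1.56. E-cadherin (CDH1), which joins epithelial cells, was 7.31, 6.84, 5.99, 5.25, 5.61 and 7.10 in the LALBA-high tumours (mean 6.35 ± 0.85, SD, n = 6) and 7.66, 8.42, 6.53, 8.56, 8.87, 8.84 and 8.76 in the LALBA-low ones (mean 8.23 ± 0.86, SD, n = 7). The tumour of dog 9 alone overlapped the LALBA-high class, and the difference was -1.88 (SE 0.45). The keratin KRT8 was 13.39, 11.98, 12.47, 10.31, 11.54 and 12.56 against 13.35, 12.48, 12.97, 14.08, 12.89, 14.57 and 13.23, a difference of -1.32. KRT7 differed by -2.01 and the tight junction genes CLDN7 and CLDN4 by -1.62 and -2.44. KRT18, the partner of KRT8, was 12.87, 9.90, 12.44, 6.34, 12.59 and 12.86 against 13.01, 12.32, 11.72, 13.60, 11.05, 14.32 and 13.50. Its difference of -1.62 (SE 0.98) did not reach the unadjusted threshold, and the tumour of dog 6, high in LALBA, BTN1A1 and ELF5, stood far below all others in KRT18. Without that tumour the difference was -0.66.

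Averaged over its tested genes, the luminal list ran from 7.19 to 10.30 (median 9.33) in the LALBA-high and from 9.18 to 11.29 (median 10.27) in the LALBA-low tumours, so the classes overlapped. The count of 5 ran from 4 to 7 when single tumours were left out, was 2 with age as a covariate or with the threshold at log2 6, and was 10 with the stromal list mean as a covariate. Basal and myoepithelial genes were also mostly lower, with 3 of 14 at the unadjusted threshold, 13 negative differences and a median of -0.82. The 3 were the smooth muscle genes CNN1 (-2.08) and TAGLN (-1.11) and the laminin chain LAMB3 (-0.97). That count was 7 without the tumour of dog 1, 6 without that of dog 2 and 2 to 4 without any other single tumour. KRT19 and KRT14 are not analysed here.

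Mitosis genes were higher in the LALBA-high tumours. All 23 tested genes had a positive difference, 13 reached the unadjusted threshold, and the list median was 1.15 against 0.04 over all genes. CCNB2, a cyclin of mitotic entry, was 9.75, 10.36, 9.45, 12.28, 10.64 and 8.66 in the LALBA-high tumours (mean 10.19 ± 1.24, SD, n = 6). In the LALBA-low tumours it was 9.53, 7.02, 8.98, 9.86, 8.61, 8.29 and 7.33 (mean 8.52 ± 1.06, SD, n = 7), a difference of 1.67 (SE 0.58). The tumour of dog 6 was the highest, and those of dogs 4, 9 and 10 lay within the LALBA-high range. CDK1, the kinase that drives entry into mitosis, was 9.66, 10.92, 10.30, 11.93, 10.46 and 9.41 against 9.78, 7.98, 9.21, 9.90, 8.93, 9.97 and 8.91, a difference of 1.20 (SE 0.42). The kinetochore gene CENPF differed by 1.75. The mean of the mitosis list ran from 7.62 to 10.30 (median 9.29) in the LALBA-high and from 6.42 to 9.65 (median 8.10) in the LALBA-low tumours, an overlap that takes in most tumours.

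The mitosis count depended on single tumours. It was 8 without the tumour of dog 1, 11 or 12, 6 without that of dog 2 or 13, 5 without that of dog 5, 6 or 7, 19 without that of dog 10 and 18 without that of dog 14. It was 22 with age, 2 with the luminal list mean and 7 with the stromal list mean as a covariate, 8 with array weights, 3 as a slope on LALBA, 2 with the threshold at log2 6 and 1 without dogs 1, 2 and 7 together.

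DNA replication genes had the same direction. Of 23 tested, 9 were higher at the unadjusted threshold and 22 differences were positive, with a median of 0.66. Among them were the thymidylate synthase TYMS (0.77), the ribonucleotide reductase subunit RRM1 (0.74), the origin factors ORC6 (1.53) and CDC6 (1.56) and the helicase subunits MCM5 (1.24) and MCM4 (1.09). The count was 5 without the tumour of dog 6 and 6 without that of dog 2, 5, 7 or 13. It was 17 with age, 5 with the luminal and 3 with the stromal list mean as a covariate, 4 as a slope on LALBA and 4 without dogs 1, 2 and 7. Of 12 G1 genes, 1 reached the threshold, the inhibitor CDKN2C at 1.29. CDKN1A (p21), another inhibitor, had a difference of -1.28 that did not. MKI67 is not analysed here.

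**Figure D2:**
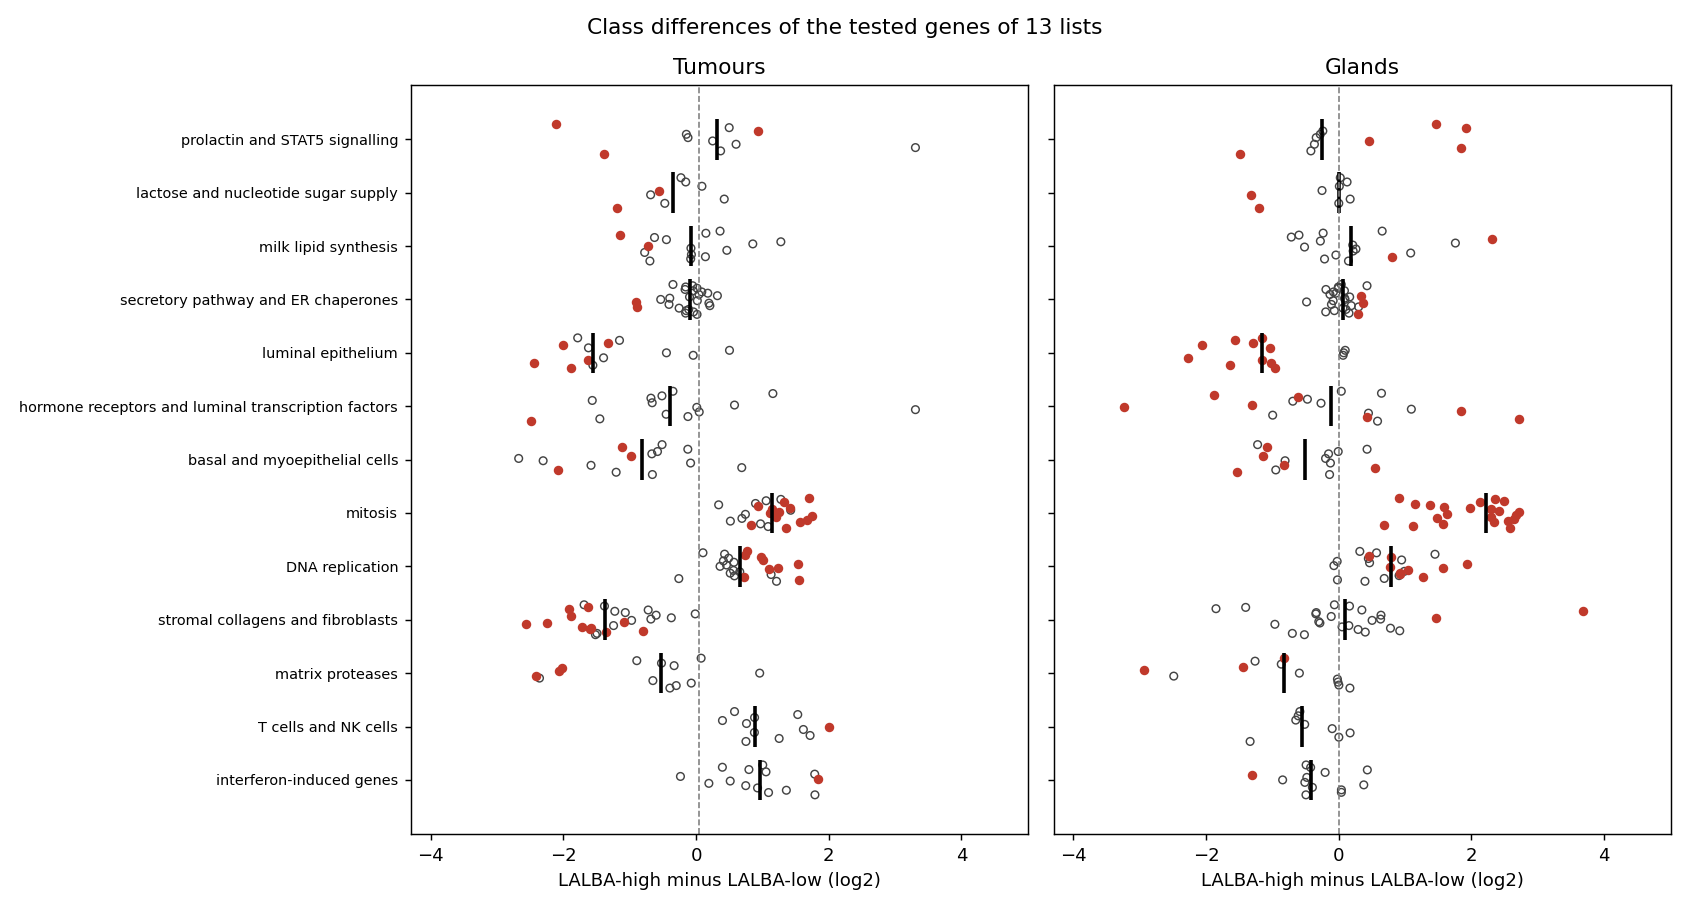
Differences between LALBA-high and LALBA-low dogs (log2, horizontal axis) for each tested gene of 13 lists, in tumours (left) and glands (right). Filled red points reached an unadjusted p below 0.05, open points did not, the thick line is the list median and the dashed line the median over all genes; in tumours the mitosis points lie to the right (median 1.15) and the stromal and luminal points to the left (medians -1.37 and -1.56).

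Stromal genes were lower in the LALBA-high tumours. All 24 tested genes had a negative difference, 11 reached the unadjusted threshold, and the median was -1.37. COL1A2, a chain of type I collagen, was 14.50, 13.90, 13.28, 12.78, 11.58 and 12.57 in the LALBA-high tumours (mean 13.10 ± 1.03, SD, n = 6) and 15.41, 14.44, 16.12, 14.24, 14.84, 13.15 and 14.68 in the LALBA-low ones (mean 14.70 ± 0.93, SD, n = 7). The LALBA-high tumours of dogs 1, 2 and 3 reached into the LALBA-low range, and the difference was -1.59 (SE 0.49). LOXL2, a collagen cross-linking enzyme, was 11.64, 11.56, 10.31, 11.40, 11.22 and 10.11 against 12.64, 11.87, 14.85, 13.18, 13.02, 13.65 and 11.26, a difference of -1.89 (SE 0.49) with overlap through the tumour of dog 13. COL6A1, of the type VI collagen network, differed by -2.57. The mean of the stromal list ran from 8.54 to 11.56 (median 9.96) in the LALBA-high and from 9.92 to 13.16 (median 11.41) in the LALBA-low tumours.

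Of 13 matrix proteases and their inhibitors, 3 were lower, the gelatinases MMP2 (-2.06) and MMP9 (-2.01) and the collagenase MMP13 (-2.40), with a list median of -0.52. TGFB1, a growth factor that drives matrix production, was the only 1 of 10 genes of epithelial-mesenchymal transition at the threshold (-1.26), while the mesenchymal genes VIM (-0.23) and ZEB2 (-0.47) were not. The stromal count of 11 was 5 without the tumour of dog 7, 7 without that of dog 4, 6, 9 or 11, 17 without that of dog 2, 19 without that of dog 12 and 3 with the actin 3′ minus 5′ difference as a covariate. It was 21 with the luminal list mean as a covariate, 19 with the threshold at log2 6 and 18 with array weights.

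For genes of T and NK cells all 11 differences were positive with a median of 0.88, but only CTLA4, an inhibitory T cell receptor, reached the unadjusted threshold (2.00). The list mean was 9.68 in the LALBA-high tumour of dog 3 and 8.83 in that of dog 7, whereas the other 4 (4.99 to 6.84) lay within the LALBA-low range of 4.62 to 7.44. CD3E, a part of the T cell receptor complex, differed by 0.88, and by 0.42 without the tumour of dog 3. Of 14 interferon-response genes, 13 differences were positive with a median of 0.97, and ISG15 alone reached the threshold (1.83). The B and plasma cell list (5 genes, median 0.52) and the macrophage list (16 genes, median -0.24) had 0 genes at the threshold in either direction. Of 13 endothelial genes 2 were lower, PLVAP (-1.52) and ENG (-1.47), with a median of -0.30. Of 9 adipocyte genes, 1 was lower, CFD (-1.01), with a median of 0.19. The 3 skeletal muscle genes had 0 at the threshold.

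The machinery that a secretory cell uses had few genes at the threshold. Of 8 genes of lactose synthesis 2 were lower and 0 were higher, with a median of -0.35, and the lower ones were B4GALT1 (-1.20), the partner of alpha-lactalbumin, and PGM1 (-0.56). Of 15 genes of milk lipid synthesis 2 were lower, ELOVL1 (-0.72) and ME1 (-1.14), with a median of -0.08. Of 25 genes of the secretory pathway 2 were lower, the chaperone cofactor SDF2L1 (-0.90) and the retrieval receptor KDELR3 (-0.89), with a median of -0.10. Of 15 hypoxia and glycolysis genes 1 was higher, PDK1, and 3 were lower, among them the glycolytic enzymes PKM (-1.49) and PFKP (-1.15), with a median of -0.03.

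Complete separation of the tumour classes was rare, with 23 genes (0.261%) wholly higher and 18 genes (0.204%) wholly lower in the LALBA-high tumours, and no tested member of the lists above was among them. After LOC491264, the genes with the smallest p included LIN9, a subunit of the complex that switches on cell cycle genes, at 8.09 to 8.66 in the LALBA-high and 6.54 to 7.66 in the LALBA-low tumours, a difference of 1.22. NASP, a histone chaperone, differed by 1.01, the transcription factor SP3 by 0.92, the kinase TTBK2 by 0.89, and WDR76 and ZGRF1 by 1.85 and 1.44. ZGRF1 reached at most 4.33 in the LALBA-low tumours, in dog 4. A gene could enter this fit by exceeding log2 4 in 4 tumours of a single class, which favours genes that are high in that class. In the other direction PLCD3, a phospholipase C, was 3.78 to 4.98 in the LALBA-high and 5.23 to 8.08 in the LALBA-low tumours, a difference of -2.48. RDH5, a retinol dehydrogenase, was 5.83 to 6.94 against 7.03 to 8.45, a difference of -1.64. GALNT6, which starts mucin glycosylation, differed by -3.34, JUNB by -1.92, QSOX1 by -1.64, ZDHHC9 by -1.48, TNKS1BP1 by -1.47 and B4GALT7 by -1.12. None of these 14 passed after adjustment in limma, where their adjusted p began at 0.31.

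Ranked by Pearson correlation with LALBA over the 13 tumours, the genes most like it after BTN1A1 were LOC611115 (0.91), LOC491264 (0.89), NASP (0.89), LSM6 (0.84), PPIH (0.83), ASF1A (0.83) and CSN2 (0.82). NASP and ASF1A are histone chaperones, and LSM6 and PPIH belong to the splicing machinery. The most opposite were VAMP5 (-0.84), RHOC (-0.83), BSG (-0.83) and ABHD14A (-0.82). Within the 6 LALBA-high tumours alone the values were 0.83 for LOC611115, 0.73 for LOC491264, 0.66 for NASP, 0.71 for LSM6, 0.60 for PPIH, 0.80 for ASF1A, -0.83 for VAMP5, -0.62 for RHOC, -0.81 for BSG and -0.67 for ABHD14A. Per log2 unit of LALBA the slope over the 13 tumours was 0.56 for BTN1A1 and 0.94 for LOC491264. These slopes use the LALBA values that set the classes and describe the same relation, so nothing further is read from the 2 of 8816 genes (0.0227%) that such a fit called.

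The glands, which did not set the classes, were compared between the same dogs. Mitosis genes were higher in the glands of LALBA-high dogs at the unadjusted threshold in 22 of 22 tested genes, with a median difference of 2.21, although 0 were called after adjustment in limma (smallest adjusted p = 0.0956). The list mean in the LALBA-high dogs was 6.35 in dog 2, 7.25 in dog 3, 4.36 in dog 6, 7.00 in dog 7 and 7.63 in dog 14, and in the LALBA-low dogs it ran from 4.07 to 4.98. The gland of dog 6 thus lay within the LALBA-low range, although its tumour had the highest CCNB2 and CDK1. CDK1 itself differed by 2.30 (SE 0.46). The count was 14 without the gland of dog 14, 15 without that of dog 3, 7 with age as a covariate and 14 with a stricter filter on low values. The number of mitosis genes tested under that filter is not given here. The LALBA-low means lay close to the log2 4 line, and a gene was tested where 4 glands exceeded it. Mitosis genes could thus be tested through the LALBA-high glands alone, so the 22 of 22 is only a description.

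Over 8731 genes in the glands, 989 (11.3%) were higher and 1061 (12.2%) lower in the LALBA-high dogs at an unadjusted p below 0.05. Complete separation was seen for 134 genes (1.53%) in the higher and 108 genes (1.24%) in the lower direction. DNA replication genes were higher in 9 of 22, with a median of 0.78. The count was 6 without the gland of dog 14, 16 without that of dog 6 and 1 with age as a covariate. Luminal genes were lower in 10 of 13, with a median of -1.16, and the count was 2 with age as a covariate and 4 with the threshold at log2 6. Stromal genes were higher in 2 of 24, POSTN and FN1, with a median of 0.10, whereas in the tumours all 24 had a negative difference. STAT5A was 10.36, 12.92, 12.34, 11.95 and 13.00 in the glands of the LALBA-high dogs and 10.17, 10.28, 10.83, 9.40, 10.32 and 10.17 in those of the LALBA-low dogs, a difference of 1.92 (SE 0.43, limma adjusted p = 0.0956) in which the gland of dog 2 lay within the LALBA-low range.

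After adjustment 13 genes (0.149%) were called in the glands, 2 higher and 11 lower in the LALBA-high dogs, and apart from KRT7 their names are given after their values were seen. KRT7 was 10.98, 10.40, 11.62, 11.16 and 11.04 in the LALBA-high and 14.05, 12.69, 13.13, 13.34, 13.13 and 12.24 in the LALBA-low dogs, a difference of -2.06 (SE 0.30, limma adjusted p = 0.0373) without overlap. The others lower were SQLE (-1.52), an enzyme of cholesterol synthesis, FOS (-2.73), an immediate-early transcription factor, PIP (-2.41), WNT5B (-1.86), FAM107A (-1.48), KRT71 (-1.21), SLC35F2 (-2.90), SLC16A11 (-2.83), SYT8 (-2.49) and LOC489461 (-2.76). The 2 higher were IGSF10 (3.20) and EXOSC2 (1.47), a subunit of the RNA exosome. The count was 0 without the gland of dog 3, 12 or 14, 1 without that of dog 4 or 7, 2 without that of dog 10, 5 without that of dog 11, 57 without that of dog 6, 112 without that of dog 13 and 405 without that of dog 2. It was 0 with age or with the actin 3′ minus 5′ difference as a covariate, 13 with the skeletal muscle list mean as a covariate and 506 with the threshold at log2 6.

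**Figure D3:**
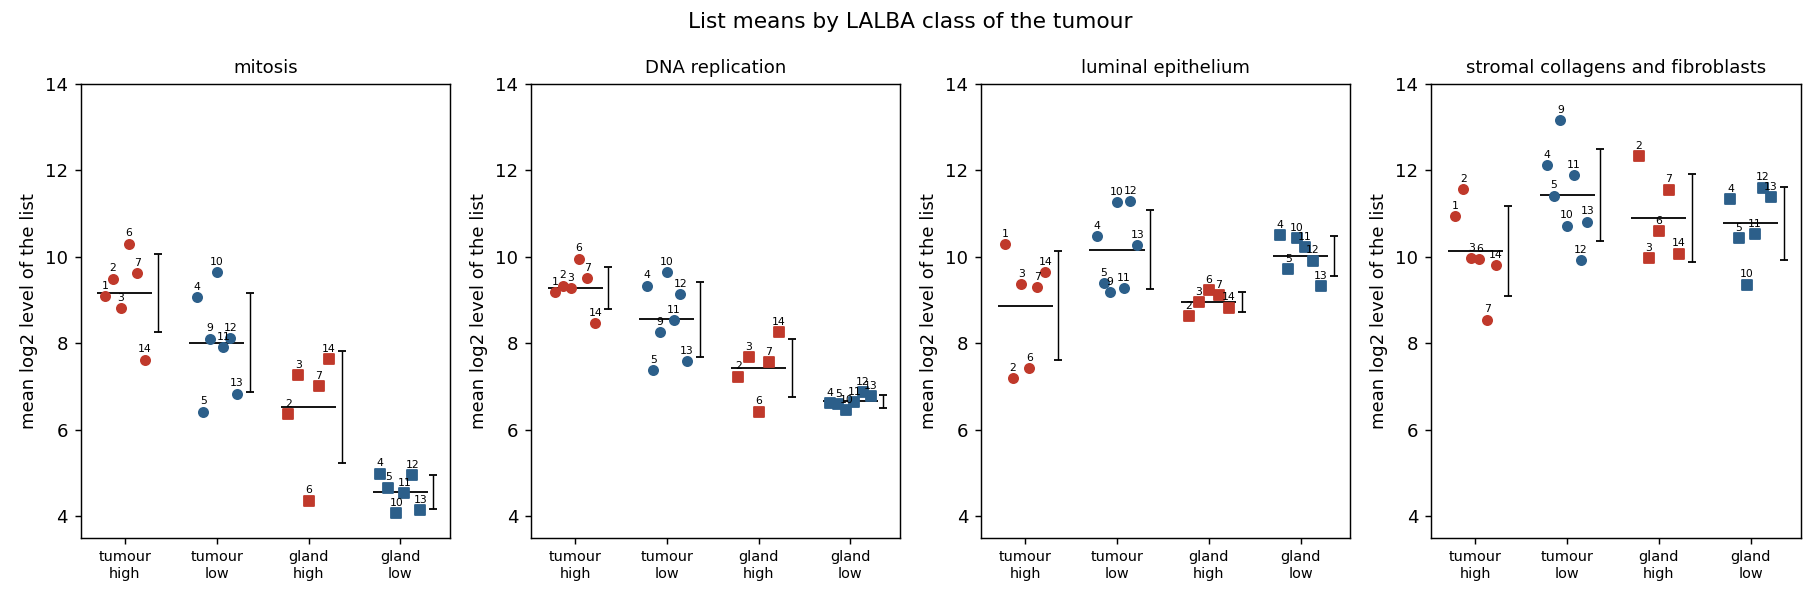
Mean log2 signal (vertical axis) over the tested genes of the mitosis, DNA replication, luminal and stromal lists in each tumour (circles) and gland (squares) of the LALBA-high (red) and LALBA-low (blue) dogs, with class means and SD. In the glands the mitosis mean of dog 6 (4.36) lies within the LALBA-low range and the other 4 LALBA-high dogs above it, and in the tumours the classes overlap in every panel.

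Whether the tumour minus gland change differed between the classes was tested in the 11 dogs with both tissues, with the dog as a block. Over 8884 genes, 1 was called (0.0113%), LOC491264, whose loss in the tumour was larger by 7.36 (SE 0.85, limma adjusted p = 0.0382) in the LALBA-low dogs. The call was lost in 11 of 20 alternatives, 8 of them among the 11 fits that left out a dog, with adjusted p from 0.0182 to 0.372. In the glands alone LOC491264 differed by 0.47 between the sets of dogs (limma adjusted p = 0.572). The tumour arrays that set the classes also enter the tumour minus gland test. Its call therefore largely restates the difference between the tumour classes and is not independent of it.

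Across the 12 glands, dog 8 included, the genes that followed the level of LALBA were also measured as slopes. Over 8769 genes 5 were called (0.057%), 4 of them rising with LALBA. At an unadjusted p below 0.05, 237 (2.7%) had a positive and 645 (7.36%) a negative slope. SPINT3, of the Kunitz inhibitor family, rose by 1.15 per log2 unit of LALBA, BTN1A1 by 0.81 and FABP3, the mammary fatty acid-binding protein, by 0.79, and these 3 were called in limma in each of the 18 alternatives. PPP1R1A rose by 0.60 and MECOM had a slope of -0.27, and these were lost in 11 and 5 of the 18. Slopes that were not called were 1.04 for CSN2 (limma adjusted p = 0.126), 0.62 for XDH (0.098), 0.39 for STAT5B (0.183) and 0.34 for STAT5A (0.264). A second probe set of LOC491264, not the brightest and so not counted among the 5, also rose in the glands, by 1.25 per log2 unit (limma adjusted p = 0.0237). In the tumours the slopes were 0.56 for BTN1A1, 0.23 for FABP3 and 1.16 for that probe set of LOC491264. Whether the slopes differed between tissues was not tested.

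**Figure D4:**
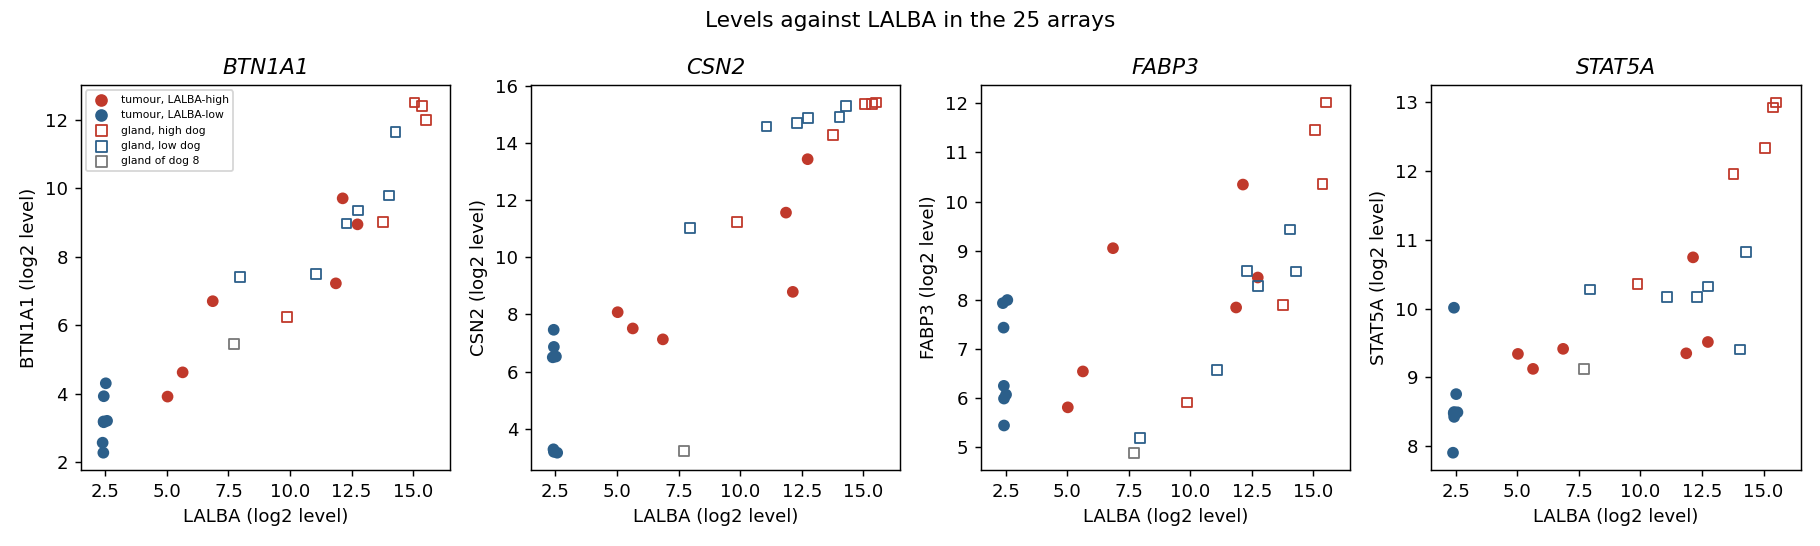
BTN1A1, CSN2, FABP3 and STAT5A (log2 signal, vertical axes) against LALBA (log2 signal, horizontal axes) in the 25 arrays, with tumours as filled circles, glands as open squares and the gland of dog 8 in grey. BTN1A1 climbs with LALBA in both tissues (slopes 0.56 in tumours and 0.81 in glands), while the LALBA-low tumours form a column at the left with CSN2 between 3.16 and 7.46.

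Of 5 labels compared between the tumour classes, 1 differed after adjustment over the 5. The LALBA-high dogs were 10.2 ± 1.17 years old (SD, n = 6) and the LALBA-low dogs 14.3 ± 1.98 years (SD, n = 7), a difference of -4.12 years (two-sided exact permutation p = 0.0035, adjusted p = 0.0175). With the threshold at log2 6 the difference was -2.72 years and did not pass (exact permutation, adjusted p = 0.462). Tumour size was 2.17 ± 0.98 cm and 2.64 ± 1.60 cm, and survival was 6.0 ± 2.45 months (SD, n = 6) and 4.33 ± 3.33 months (SD, n = 6), each with an exact permutation adjusted p of 0.749. Age and LALBA class went together in these dogs, and the counts with age as a covariate given above are those in which the class difference was fitted beside it.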

How the data were processed

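RNA of 13 canine mammary carcinomas and 12 non-neoplastic glands was hybridised to Affymetrix canine arrays. The authors deposited log2 values per probe set, for which the submitters' processing notes name GCRMA, RMA and Partek without versions, and these were used as given. The settings of the background correction are not known, and differences near the bottom of the scale may be compressed.

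Control probe sets were left out (111), and genes were named from the platform annotation, updated through the RefSeq table of assembly UU_Cfam_GSD_1.0, which was used for names and neighbours only. Probe sets with several symbols (439) were not named. A probe set was tested where it exceeded log2 4 in at least 4 tumours, 4 glands or, for the paired fit, 6 arrays, and each gene was represented by whichever of its tested probe sets was brightest on average over all arrays. Models were fitted with limma 3.58.1 (trend) in R 4.3.3, with p-values adjusted by the Benjamini-Hochberg method over all tested probe sets and a threshold of 0.05. Labels were compared by exact permutation or Fisher's exact tests in SciPy 1.17.1 under Python 3.11.15. The fits were tested on simulated data.

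Tissues of 1 dog share its number, and their deviations from the group means correlated with r from 0.119 to 0.456 in the 11 pairs, so the dog was a block in the tumour minus gland fit. No arrays were identical (0 pairs). The titles of 5 of 6 LALBA-high and 4 of 7 LALBA-low tumours end in the suffix b, and no gland title does. The labels do not say what the suffix means. With it as a covariate in the tumours the mitosis count was 9 and the stromal count 8. It was not fitted in the tumour minus gland test. Nothing beyond the dog numbers and this suffix says how the specimens were handled, so the spread between dogs is the error throughout.

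The genes named were the milk list, fixed hormone and keratin genes, the 2 of smallest p in each list, the 8 of smallest p in each direction, the 8 most like and 4 most opposite to LALBA, genes called in the gland slope, and other list members chosen after their values were seen. The members and the lists were chosen with earlier results of these data known. Alternatives changed the scaling, filter, threshold, covariates and samples.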

Additional observations from a re-analysis of the deposited data

Results flagged for a closer look

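Dixon's criterion was applied to 238 groups of levels, list means or dog labels within a class, mostly of tumours and some of glands. It raised 20 flags, each for a tumour far from the others of its class. Chance alone flags about 1 in 20 of the groups checked, a share of the 238 and not of the 20 flags. No explanation was tested for any of them. In the LALBA-low class the tumour of dog 13 stood high in 6 genes: FOXA1 (6.52), PRLR (6.344), ESR1 (3.741), STAT5A (10.01), the lactoperoxidase gene LPO (5.208) and the malic enzyme gene ME1 (11.99). These include the receptor and the transcription factor of the prolactin pathway in a tumour whose LALBA was 2.43. The ESR1 value of dog 13, like the TP63 value of dog 5 given below, lay under the log2 4 line and is not a high level.

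Others in the LALBA-low class were KDELR3 in dog 9 (12.59), SDF2L1 in dog 11 (12.79), RBP7 and ZGRF1 in dog 4 (4.373 and 4.332), TP63 in dog 5 (2.789), and, at the low end, QSOX1 (6.617) and the mean of the milk lipid synthesis list (7.238) in dog 5. In the LALBA-high class they were STAT5A in dog 6 (10.74), the T cell gene CD3E and the macrophage receptor CSF1R in dog 3 (10.99 and 9.535), CIDEA in dog 7 (4.286), TP63 (5.381) and the mean of the hormone receptor list (8.386) in dog 14, and, at the low end, IFI44 in dog 1 (8.262).

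LOC491264 was flagged because its tumour minus gland change differed between the classes, by 7.357 on the log2 scale, in the test of the difference itself. That test includes the tumour arrays that set the classes.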

How the results depend on the processing

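Counts of called genes moved with several settings, and where no value is given beside it the cause was not tested. In the tumours the count of 0 was 6 with the LALBA threshold at log2 6, 2 with the LALBA level as a slope, 1 in the dogs with both tissues, 1 with array weights, 2 without dogs 1, 2 and 7, and 0 to 1 without single tumours. In the glands the count of 13 was 1 with no filter on low values, 506 with the threshold at log2 6, 0 with age and 0 with the actin difference as a covariate, and 0 to 405 without single glands. The gland slope count of 5 was 9 with arrays centred on their median and 3 to 7 without single glands. The tumour minus gland count of 1 was 0 with no filter, 0 without a trend, 0 at log2 6, 0 to 1 without single dogs, and 1 with no replicate block. The age difference was -2.722 years and the gland LALBA difference 3.172 at log2 6, and the latter was 1.031 to 2.86 without single dogs. The HER-2 share difference was -0.1667 to 0.1429 without single tumours.

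GATA3, near 0 in the tumours, became -0.3982 at log2 6, -0.07971 with the title suffix, -1.438 with the luminal list, -0.06687 with the actin difference and -2.23 with age as a covariate, -0.1674 with array weights, and -0.7396 to 0.7838 without single tumours. Without single tumours PGR was -1.131 to 0.0577 and VIM -0.4481 to 0.00068. KRT18 was 0.3534 with the luminal list as a covariate, and with the stromal list IGFBP4 was 0.03147, TNNT1 -0.4272, VIM 0.682 and ZEB2 0.7011. VIM was 0.09469 with the actin difference, and PKM 0.2428 and RBP7 -0.02742 with age. Of 2441 values in the tumours 2406 were counted as unchanged. For most genes this meant the same direction and side of the threshold, and 0 genes were called to begin with. Milk genes counted as unchanged where the value moved by less than the larger class SD, so sign changes alone were not counted. XDH ran from -0.6167 to 0.4866, MFGE8 from -0.943 to 0.5045, PIGR from -3.35 to 0.7224 and MUC1 from -1.88 to 0.3639. LPL ran from -0.334 to 0.87 and PLIN2 from -0.114 to 0.8805. BTN1A1 fell below the adjusted threshold in 3 of 29 alternatives, among them the slope on LALBA itself. No test is read from this. BTN1A1 belongs to the same secretory programme and met the filter mainly through the LALBA-high tumours. In the glands 143 of 284 lost their call or threshold, as did 16 of 90 slopes. The actin, age and muscle covariates and the set without dogs 1, 2 and 7 were chosen after seeing the data. The number of arrays limits what could be called.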

Other observations

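The gland of dog 8, whose tumour is not analysed here, had LALBA at 7.72, CSN2 at 3.23, BTN1A1 at 5.45 and LOC491264 at 6.32. It was the lowest of the 12 glands in all 4 genes. Its LALBA without measurable CSN2 is the reverse of the LALBA-low tumours of dogs 4, 5, 10 and 13, which had CSN2 above log2 6 with LALBA at the bottom of the scale. The skeletal muscle list mean ran from 10.05 to 12.37 in the glands of dogs 7, 10, 11, 12, 13 and 14 and from 7.07 to 7.83 in the other glands, a split that crosses the LALBA classes.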
